A study of Mus musculus with 4 samples.

Results

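The genes described here gave a signal at least 1.5-fold lower on an array of ultrasound-treated mouse ST2 stromal cells than on the control array. Each of 18193 genes was represented by its brightest probe set, the group of probes on the array that reports a transcript, and a floor was set at the median of all values, log2 5.23, to which lower values were raised. A gene was taken when its log2 signal at 0.5, 1 or 3 h minus that of the control was -0.585 or less, which is a 1.5-fold difference. Of 11685 genes above the floor on at least 1 array, 60 met this condition (0.513%), and 48 of them are described. The other 12 were left out by name, among them the clock genes Dbp, Cry2, Nr1d1 and Ciart and the mitotic genes Plk1, Nek2 and Ccnf.

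ST2 is an established, fibroblast-like line from the bone marrow of BALB/c mice. The control group was 1 array of cells kept at 37 °C. The other groups were 1 array each of cells given low-intensity pulsed ultrasound, abbreviated LIPUS. It is used in fracture care and is thought to act on cells by mechanical force, which was not tested here. The dose was 25 mW per square cm for 20 min, followed by 0.5, 1 or 3 h of culture at the same temperature, with 10% serum and 5% CO2 for all groups. The labels do not say whether control cells were handled like treated ones without ultrasound, or when they were harvested, and the study asked which transcripts respond early.

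With 1 array per group there was no replicate, so no test, standard error or p-value is given, and differences between cultures were not measured. The low values chose the genes, so every difference below is a description. All 3 differences of a gene share the 1 control array. The error that could be estimated was that between 2 probe sets of a gene, whose log2 differences had an SD per probe set of 0.108 at 0.5 h (5284 genes), 0.158 at 1 h (5292) and 0.138 at 3 h (5285). Among genes with a mean log2 signal under 7 the same SD was 0.140, 0.185 and 0.160. The median log2 signal of the 4 arrays ran from 5.21 to 5.25. All 9 stromal markers, Col1a1 and Vim among them, were above the floor, and so was 1 each of 6 haematopoietic (Cd3e), 4 endothelial (Kdr), 3 mature osteoblast (Sp7) and 4 epithelial (Epcam) markers and 0 of 3 adipocyte markers. The log2 of the summed stromal signal ran from 16.57 to 16.63 over the arrays, and the ranges were 7.10 to 7.21 for haematopoietic, 6.47 to 6.72 for endothelial, 5.89 to 5.99 for osteoblast, 7.78 to 7.94 for epithelial and 4.80 to 5.01 for adipocyte markers. Relative to the control, 18S ribosomal RNA probe sets (3) differed by a median log2 of 0.96, 1.91 and 1.79 at 0.5, 1 and 3 h, and 24 probe sets for added poly-A control transcripts by -0.05, 0.29 and 0.39. The gap between 5' and 3' probe sets, a measure of transcript integrity, differed from that in the control by -0.06, -0.16 and -0.16 on the log2 scale for Gapdh and by -0.03, -0.13 and -0.09 for Actb. It differed by -0.09, -0.23 and -0.22 for pyruvate carboxylase and by -0.41, -0.30 and -0.14 for the transferrin receptor. The part of these shifts in the low values was not tested.

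A transcript level falls when its synthesis slows or its decay quickens, and an early drop is easiest to see for short-lived messages. Messages of many transcription factors and signalling regulators turn over fast, whereas those of enzymes and structural proteins are usually stable. In bulk RNA, fewer cells expressing a gene and less RNA per cell cannot be told apart.

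Against the control array, 1 h had the most low values. At 0.5 h, 12 of 11574 measured genes were at least 1.5-fold lower (0.104%), of which 7 are described here. At 1 h there were 38 of 11497 (0.331%), of which 28 are described, and at 3 h 21 of 11574 (0.181%), of which 19 are described. The order changed with the reference. Without the genes left out by name, the counts against the control were 7, 28 and 19. With the mean of the other 3 arrays in place of the control they were 7, 4 and 14. There 1 h had the fewest. That mean holds the control and the other LIPUS arrays, so a gene low at more than 1 time differs less from it. The change therefore cannot show whether the first order rests on the control array. Of the genes left out by name, Ccnf, Ggcx, Malat1 and Polr1b passed at both 0.5 h and 1 h. The 1 h array also held the most genes at least 1.5-fold higher, 109 (0.948%), against 43 (0.372%) at 0.5 h and 40 (0.346%) at 3 h. By the time of the lowest value, 7 genes were lowest at 0.5 h, 28 at 1 h and 13 at 3 h. Of the 48 genes, Plp2 at 1 h had the lowest difference, -0.95 on the log2 scale or 1.94-fold, and 0 reached 2-fold by the brightest probe set.

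**Figure D1:**
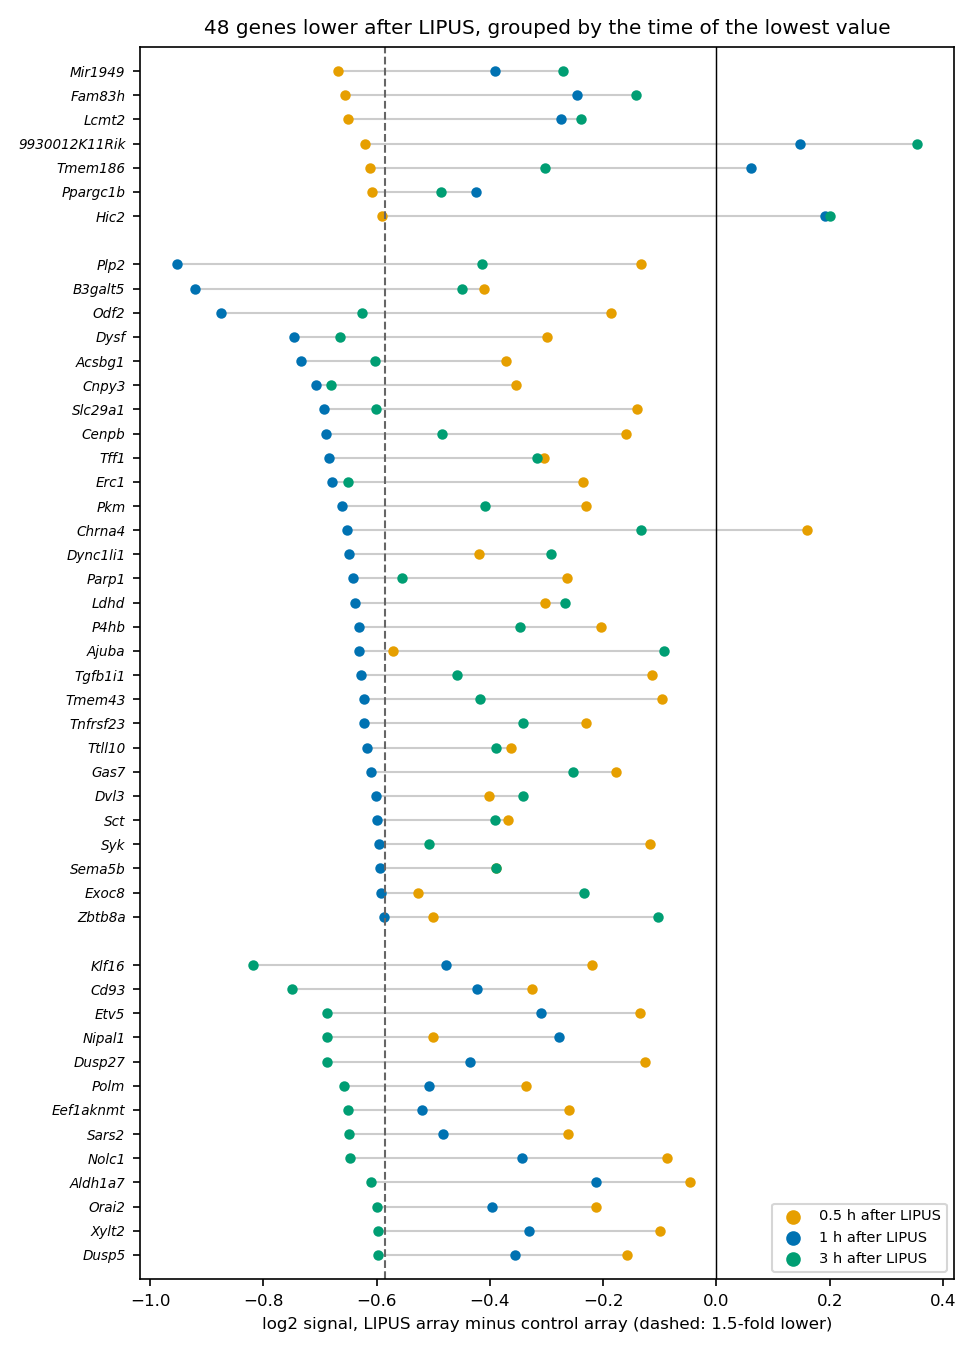
Log2 signal on each LIPUS array minus the control array (x axis) for the 48 genes (rows), grouped by the time of the lowest value; orange, blue and green points are 0.5, 1 and 3 h, and the dashed line is 1.5-fold lower. The lowest values lie between -0.59 and -0.95, and 28 of the 48 genes are lowest at 1 h.

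Because the genes were sorted by their lowest time, part of each course is fixed by the sorting. The 7 genes lowest at 0.5 h had a median log2 difference of -0.62 at that time, -0.25 at 1 h and -0.24 at 3 h, and 5 of the 7 were within 1.25-fold of the control at 3 h. The 28 genes lowest at 1 h had medians of -0.28, -0.64 and -0.40, and at 3 h 6 of them were still at least 1.5-fold lower and 8 were within 1.25-fold of the control. These 6 were Odf2, Dysf, Acsbg1, Cnpy3, Slc29a1 and Erc1, and they were the 6 genes past the threshold at 2 times. The 13 genes lowest at 3 h had medians of -0.21, -0.40 and -0.65. Between the 0.5 h and 1 h arrays 12 of these 13 were lower at the later time with a median of -0.20, beside 45.7% of all genes above the floor. The exception was Nipal1, at 0.22.

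**Figure D2:**
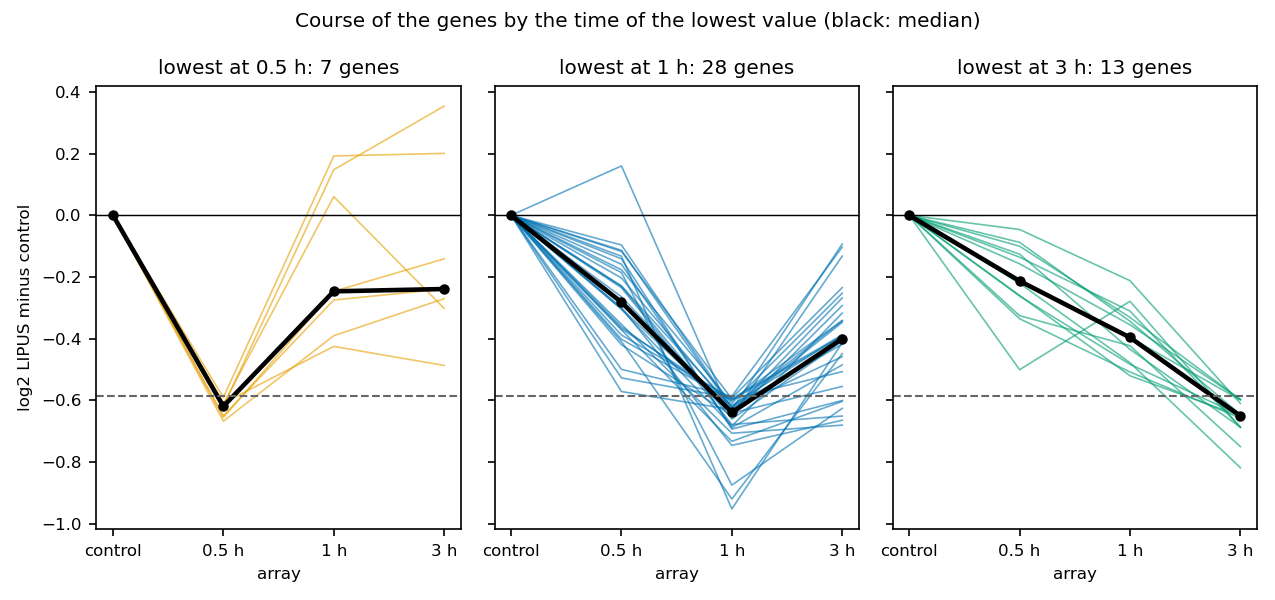
Log2 difference from the control (y axis) on the control array and at 0.5, 1 and 3 h (x axis) for genes lowest at 0.5 h (7), 1 h (28) and 3 h (13); thin lines are genes, black lines medians, and the dashed line is 1.5-fold lower. The median of the first group returns from -0.62 to -0.24, that of the second from -0.64 to -0.40, and that of the third declines at each step to -0.65.

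For 3 genes, more than 1 probe set passed the threshold at the time the brightest was lowest. Etv5 encodes an ETS transcription factor whose gene is induced by fibroblast growth factor and ERK signalling. Its brightest probe set read log2 8.36, 8.22, 8.05 and 7.67 on the control, 0.5 h, 1 h and 3 h arrays, the order used for each gene below. The 3 h array was the lowest for all 3 probe sets of Etv5, with differences of -0.69, -1.12 and -0.89.

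Nolc1 encodes a nucleolar phosphoprotein that chaperones small nucleolar ribonucleoproteins. Its brightest probe set read 10.41, 10.32, 10.06 and 9.76, and its 3 probe sets differed from the control at 3 h by -0.65, -0.64 and -0.45. All 3 were lowest at 3 h.

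Odf2 encodes a protein of the appendages of the mother centriole, also found in the sperm tail. Its brightest probe set read 9.31, 9.13, 8.44 and 8.69, so the 1 h and 3 h arrays lay below the other 2. At 1 h its 4 measured probe sets differed from the control by -0.88, -0.89, -0.56 and 0.08. The probe set at 0.08 was near the floor, at 5.81 in the control, and 1 more lay under the floor.

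The promoters of these 3 genes are shown because their low values rest on more than 1 probe set. Each run is the 150 bases just before the transcription start, 5' to 3' on the gene's strand, from RefSeq on build GRCm38.p6, and capitals mark matches to the 7 motifs listed further below. They lie at chr16:22439571-22439720 on the minus strand for Etv5, chr19:46075697-46075846 on the plus strand for Nolc1 and chr2:29889570-29889719 on the plus strand for Odf2.
Etv5: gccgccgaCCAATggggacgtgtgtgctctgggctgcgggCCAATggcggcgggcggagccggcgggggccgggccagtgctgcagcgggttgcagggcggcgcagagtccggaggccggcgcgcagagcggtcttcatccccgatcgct
Nolc1: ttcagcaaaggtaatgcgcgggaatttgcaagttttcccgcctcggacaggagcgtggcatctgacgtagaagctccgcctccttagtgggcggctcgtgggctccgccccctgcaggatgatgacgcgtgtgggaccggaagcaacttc
Odf2: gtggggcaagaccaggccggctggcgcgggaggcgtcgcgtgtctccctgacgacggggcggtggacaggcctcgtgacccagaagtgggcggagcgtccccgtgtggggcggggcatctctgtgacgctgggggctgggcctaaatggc
The Etv5 stretch holds the CCAAT box, the site of the factor NF-Y, at 2 places, and the Nolc1 and Odf2 stretches hold 0 matches. In the longer promoters searched further below, Etv5 had 3 CCAAT matches, Odf2 1 CCAAT and 1 TTTGAA match, and Nolc1 0 matches.

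**Figure D3:**
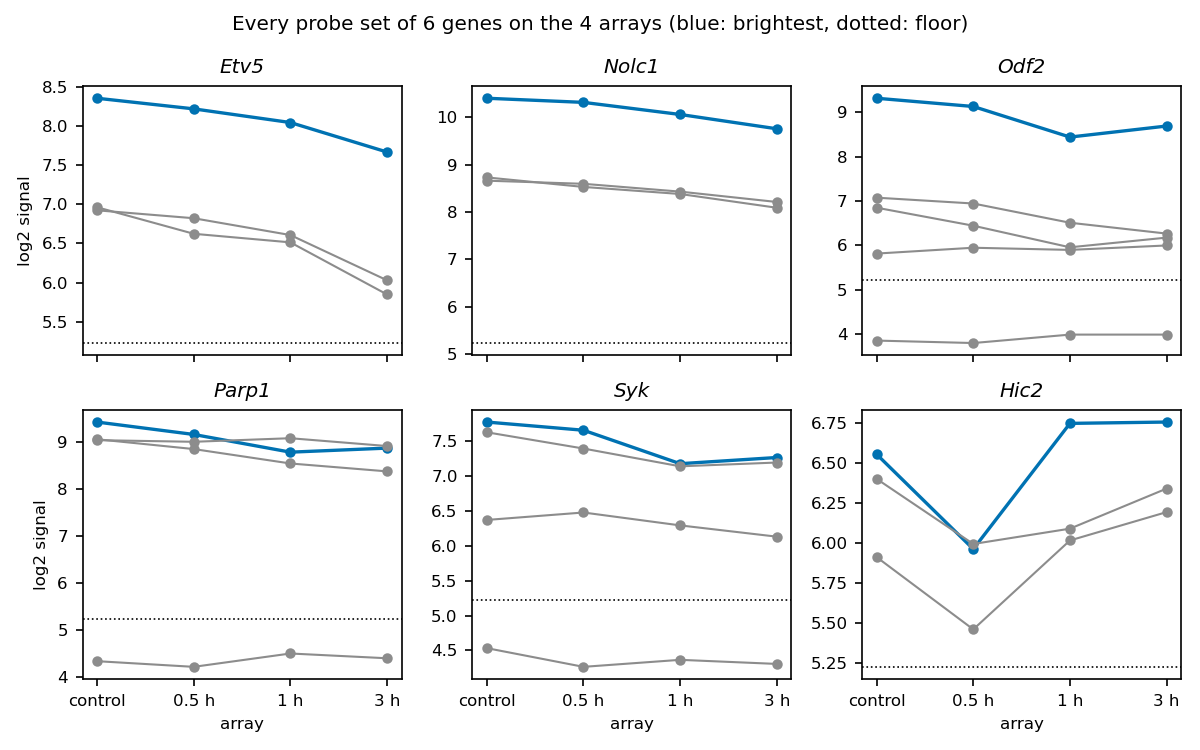
Log2 signal (y axis) of every probe set of Etv5, Nolc1, Odf2, Parp1, Syk and Hic2 on the control, 0.5, 1 and 3 h arrays (x axis); blue is the brightest probe set, grey the others, and the dotted line is the floor at 5.23. The 3 probe sets of Etv5 and of Nolc1 decline together, whereas a probe set of Parp1 stays between 8.92 and 9.08.

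Transcription factors and coregulators gave 7 genes, of which 2 were past the threshold at 0.5 h, 3 at 1 h and 2 at 3 h. Klf16, a zinc finger factor that binds GC-rich sites, read 8.98, 8.76, 8.50 and 8.16. Its 3 h value, 1.76-fold below the control, was the lowest of the 48 genes at that time, and it rests on 1 probe set. Hic2, a zinc finger repressor, read 6.55, 5.96, 6.74 and 6.75, so the 0.5 h array stood below the other 3. Its other 2 probe sets were also lower at 0.5 h, by -0.41 and -0.45.

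Zbtb8a, another zinc finger gene, read 6.80, 6.31, 6.22 and 6.70, past the threshold at 1 h, short of it at 0.5 h and close to the control at 3 h. Ajuba, a LIM protein that binds LATS kinases of the Hippo pathway and cell junctions, had a similar course, with 10.95, 10.38, 10.32 and 10.85. Its 0.5 h difference of -0.57 lay just outside the threshold. Tgfb1i1, known as Hic-5, is a LIM protein of focal adhesions and a nuclear coactivator. It read 11.20, 11.08, 10.57 and 10.74, and the 1 h value was 1.55-fold below the control. Ppargc1b, a coactivator of mitochondrial genes, read 5.84 in the control and lay under the floor at 0.5 h, so its difference there, at least 1.53-fold, is a bound.

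Genome maintenance, centromere and nucleolus gave 4 genes, 2 low at 1 h and 2 at 3 h. Parp1, the main poly(ADP-ribose) polymerase of DNA damage signalling, read 9.43, 9.16, 8.79 and 8.87, and its 1 h value was 1.56-fold below the control. Its second probe set had differences of -0.52 at 1 h and -0.68 at 3 h, but another read 9.04, 9.01, 9.08 and 8.92, which differs from the control by 0.04 at 1 h. Cenpb, which encodes a protein that binds centromeric satellite DNA, read 9.09, 8.93, 8.40 and 8.60, whereas its other probe set was higher at 1 h by 0.33. Polm, a DNA polymerase of end joining, read 6.69, 6.36, 6.18 and 6.03, and Nolc1 is given above.

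Transfer RNA and translation gave 3 genes. Lcmt2, an enzyme of wybutosine synthesis in a transfer RNA, read 7.12, 6.47, 6.85 and 6.88, with the 0.5 h array lowest at 1.57-fold below the control. Sars2, the mitochondrial seryl-tRNA synthetase, read 6.91, 6.65, 6.43 and 6.26. Eef1aknmt, a methyltransferase of elongation factor eEF1A, read 6.85, 6.59, 6.33 and 6.20. Both were lowest at 3 h, at 1.57-fold each, and a second measured probe set of Eef1aknmt was lower by -0.45.

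Membrane and secretory pathway genes numbered 9, of which 8 were low at 1 h and 4 at 3 h, beside 28 and 19 of all 48 genes. Plp2, a small membrane protein of the endoplasmic reticulum and cell surface, read 12.92, 12.79, 11.97 and 12.50. P4hb, the protein disulfide isomerase that is also a subunit of collagen prolyl hydroxylase, read 12.60, 12.39, 11.96 and 12.25. Each of the pair has 1 probe set, and in both the 1 h array was lowest with the 3 h array between it and the control. B3galt5, a galactosyltransferase, read 6.34, 5.93, 5.42 and 5.89, and its other measured probe set was lower by -0.27 at 1 h.

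Dysf, which encodes the membrane repair protein dysferlin, read 9.20, 8.90, 8.46 and 8.54. Cnpy3, a chaperone of Toll-like receptors, read 8.02, 7.67, 7.32 and 7.34, and Erc1, a scaffold of vesicle docking, 8.48, 8.25, 7.80 and 7.83. In these 3 genes the 1 h and 3 h arrays were close together and at least 1.5-fold below the control. For Erc1, however, the other 2 measured probe sets differed by -0.11 and -0.09 at 1 h. Tmem43, an inner nuclear membrane protein, read 10.44, 10.34, 9.82 and 10.02. Exoc8, an exocyst subunit, read 8.50, 7.97, 7.91 and 8.26, and Xylt2, which starts glycosaminoglycan chains, was lowest at 3 h with -0.60.

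Transporters and channels gave 4 genes. Slc29a1, the equilibrative nucleoside transporter ENT1, read 10.84, 10.70, 10.14 and 10.24, and it was past the threshold at 1 h and 3 h. Nipal1, a magnesium transporter, read 8.87, 8.37, 8.59 and 8.18, lower at 0.5 h and 3 h than between them. Its 3 h difference was past the threshold, and its 0.5 h difference, -0.50, was not. Its second probe set was also lower at 0.5 h and 3 h than at 1 h, with differences of -0.42, -0.13 and -0.39. Orai2, a store-operated calcium channel, differed by -0.60 at 3 h, but its other probe set by 0.02. Chrna4, a nicotinic receptor subunit, read 6.34, 6.50, 5.69 and 6.21, and its other 2 probe sets lay under the floor.

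Metabolic enzymes gave 4 genes. Pkm, the pyruvate kinase of most proliferating cells, read 12.81, 12.58, 12.15 and 12.40, which put the 1 h array 1.58-fold below the control. Acsbg1, an acyl-CoA synthetase, read 6.14, 5.76, 5.40 and 5.53 and was past the threshold at 1 h and 3 h. Ldhd, the D-lactate dehydrogenase, was lowest at 1 h with -0.64. Aldh1a7, an aldehyde dehydrogenase, was lowest at 3 h with -0.61.

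Signalling proteins and secreted factors numbered 9, with 6 low at 1 h and 3 at 3 h. Dusp5, a nuclear phosphatase that inactivates ERK, read 9.85, 9.69, 9.49 and 9.25, a decline at each time. Syk, a cytoplasmic tyrosine kinase, read 7.77, 7.65, 7.17 and 7.26, and its other measured probe sets differed by -0.49 and -0.08 at 1 h. Tff1, a secreted trefoil peptide, read 9.39, 9.08, 8.70 and 9.07. Cd93, a C-type lectin membrane protein, read 6.19, 5.87, 5.77 and 5.44, and its other measured probe set differed by -0.22 at 3 h.

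Dusp27, a dual specificity phosphatase family member, differed by -0.69 at 3 h and its second probe set by -0.21. Tnfrsf23, a decoy receptor for TRAIL, Dvl3, which relays WNT signals, Sct, which encodes secretin, and Sema5b, a semaphorin, had 1 h differences between -0.62 and -0.59. The 1 h signal of Sema5b lay under the floor, so its difference is a bound.

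The cytoskeleton and cilium gave 5 genes, of which Odf2 is given above. Dync1li1, a light intermediate chain of cytoplasmic dynein, read 8.99, 8.57, 8.34 and 8.70. Gas7, an actin-binding protein, differed by -0.61 at 1 h and its other measured probe set by -0.10. Ttll10, a glycine ligase of the tubulin ligase family, lay under the floor at 1 h, and its difference there, at least 1.53-fold, is a bound. Fam83h, a protein that binds keratin, read 7.40, 6.75, 7.16 and 7.26, with a low value at 0.5 h, where its other probe set differed by -0.12.

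The last 3 genes were all lowest at 0.5 h. The probe set annotated to Mir1949 reports a polyadenylated RNA of that locus, not the mature microRNA, and read 6.73, 6.06, 6.34 and 6.46. The uncharacterised gene 9930012K11Rik read 7.04, 6.42, 7.19 and 7.40. Tmem186, a mitochondrial membrane protein, read 6.24, 5.63, 6.30 and 5.94, but its other 3 probe sets differed at 0.5 h by 0.10, -0.05 and 0.19.

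Agreement between probe sets could be read for 18 of the 48 genes, since 25 genes had 1 probe set and 5 had others that all lay under the floor. Of their 28 other measured probe sets, 22 were below 0 at the gene's lowest time and 6 were at 0 or above. Over all genes, 51.7% of such probe sets were below 0 at 0.5 h, 45.6% at 1 h and 52.7% at 3 h. By time, 4 of 6 were below 0 for genes lowest at 0.5 h, 10 of 13 at 1 h and 8 of 9 at 3 h. Of the 28, 4 were at least 1.5-fold lower, beside 0.26%, 0.639% and 0.586% of such probe sets over all genes at the 3 times. The median difference of the other probe sets was -0.22, against -0.65 for the brightest probe sets of the same genes, which had been chosen for being low. The 5 genes with a probe set at 0 or above were Cenpb, Odf2, Orai2, Parp1 and Tmem186.

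**Figure D4:**
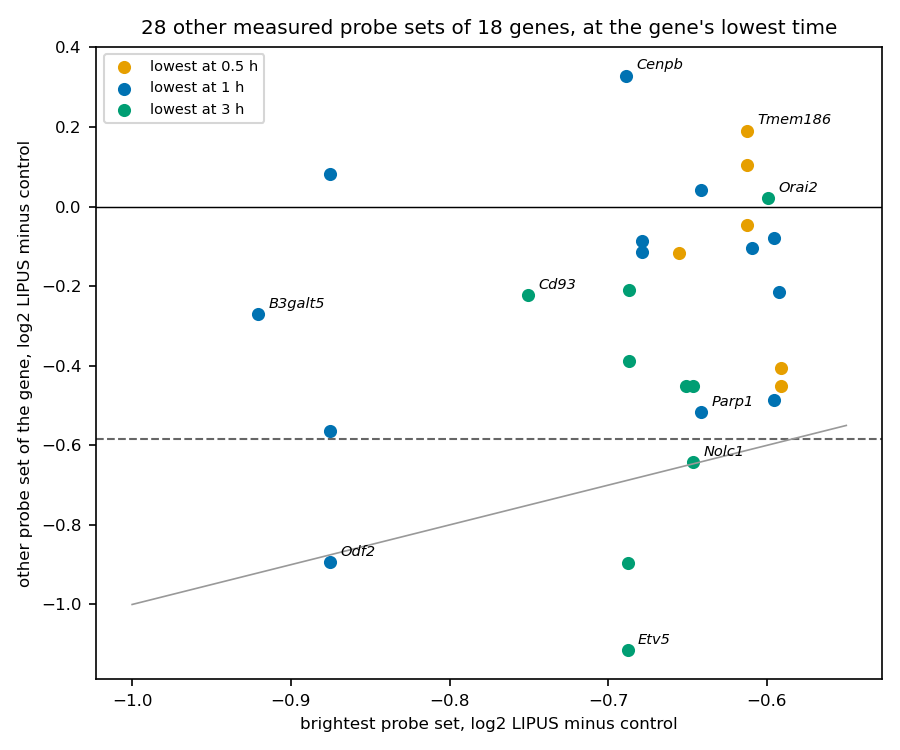
Log2 LIPUS minus control of the 28 other measured probe sets (y axis) against that of the gene's brightest probe set (x axis) at the gene's lowest time; the grey line is equality, the dashed line 1.5-fold lower, and colours give the lowest time. The probe sets of Etv5 reach -1.12, and that of Cenpb lies at 0.33.

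Near the threshold the genes passed by little. At 0.5 h the last genes inside were Hic2, Ppargc1b and Tmem186, from -0.59 to -0.61, and the first outside were Bach2, Ajuba and Zfp36l2, from -0.57 to -0.56. At 1 h Zbtb8a, Exoc8 and Sema5b, all at -0.59, were inside, and Lefty1, Brms1 and Cep85, from -0.58 to -0.57, were outside. At 3 h Dusp5, Xylt2 and Orai2, all at -0.60, were inside, and Zfp850, Zyx and Ttc27, from -0.58 to -0.57, were outside. In the control, 9 of the 48 genes were less than 1 above the floor on the log2 scale and 23 were 2 or more above it.

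Of the 48 genes, 40 were on none of 31 functional lists and 8 were spread over 7 lists, so no list held more than 2 of them. The share of all measured genes on a list was not counted, so these counts do not show whether the lists hold few or many of the 48. The lists are not complete: Zbtb8a, Chrna4, Sema5b and Dvl3 were on none of them. Among 20 measured genes of MAP kinase feedback, Dusp5 was the 1 gene at least 1.5-fold lower, at 3 h. In the same list 4 genes were at least 1.5-fold higher at 0.5 h, namely Dusp1 at 0.98, Dusp6 at 0.71, Errfi1 at 0.76 and Phlda1 at 1.63, and Phlda1 was so at 1 h. The list median was -0.01, 0.00 and -0.00 at the 3 times, beside 0.01, 0.02 and 0.01 over all genes. Of the genes outside this list, Etv4, the ETS relative of Etv5, differed by -0.05, -0.20 and -0.42, short of the threshold.

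Among 47 measured genes of RNA polymerase I and ribosome biogenesis, Nolc1 was past the threshold, at 3 h, and 0 were at least 1.5-fold higher at any time. The list does not hold Polr1b, a subunit of RNA polymerase I and 1 of the 12 genes left out by name, which was lower by -0.64 at 0.5 h and -0.75 at 1 h and stood at -0.43 at 3 h. At 3 h, 38 of the 47 were below 0 (47.5% of all measured genes were) with a median of -0.13, beside 0.01 over all genes, whereas the medians at 0.5 h and 1 h were -0.00 and 0.01. Of 44 measured genes of G2/M and mitosis, a list that does not hold the left-out Plk1, Nek2 and Ccnf, 33 were below 0 at 1 h with a median of -0.10 and 34 at 3 h with a median of -0.11. Over all measured genes, 45.1% were below 0 at 1 h and 47.5% at 3 h, with medians of 0.02 and 0.01. In the ribosome biogenesis list at 3 h, the lowest after Nolc1 were the nucleolar genes Nop56 at -0.47, Nop16 at -0.46, Rrp12 at -0.42, Grwd1 at -0.41 and Bop1 at -0.40, all short of the threshold. This list also held Taf15 and Timm8a1, which have other roles.

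**Figure D5:**
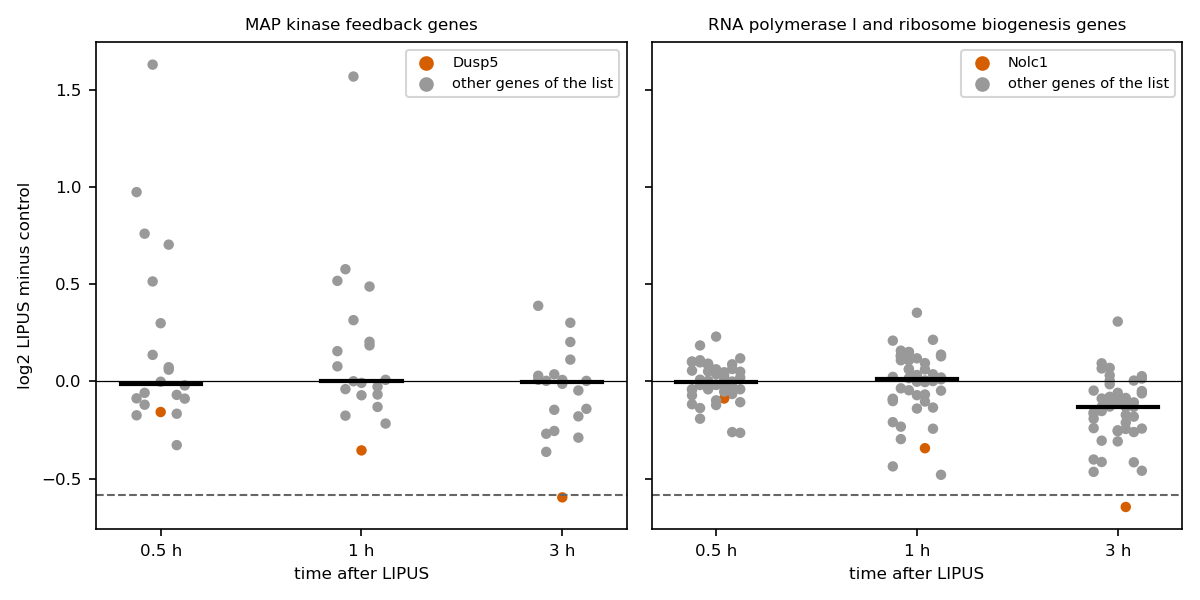
Log2 LIPUS minus control (y axis) at 0.5, 1 and 3 h (x axis) for measured genes of MAP kinase feedback (left, Dusp5 in red) and of RNA polymerase I and ribosome biogenesis (right, Nolc1 in red); grey points are the other genes, black bars the list medians, and the dashed line 1.5-fold lower. Of the genes plotted, Dusp5 and Nolc1 lie under the line at 3 h; Polr1b, left out by name, is not plotted. The median of the right list is -0.13 at 3 h.

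Tgfb1i1 was the 1 of 24 measured TGF-beta genes past the threshold, at 1 h, where the list median was 0.05 and Smad7, a feedback inhibitor, stood at 0.49. Ajuba was the 1 of 20 YAP and TEAD genes, at 1 h, with a list median of -0.00. Klf16 was the 1 of 38 immediate-early and KLF factors, at 3 h, while 7 of that list were at least 1.5-fold higher at 0.5 h and 7 at 1 h. Its relative Klf5 was at -0.47 at 3 h and Klf10 at 1.03 at 1 h. Orai2 was the 1 of 22 ion channel genes at 3 h, where Orai1 was at -0.26. Hic2 and Etv5 were the 2 low genes, at 0.5 h and 3 h, among 70 measured genes of a mixed list of transcription factors. The list holds zinc finger factors, repressors and other factors, such as the ETS factor Etv5, and in it Zbtb7a was at -0.54 at 0.5 h. It does not hold the zinc finger gene Zbtb8a, which was at -0.59 at 1 h.

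Promoters, which the choice of genes did not use, were found for 38 of the 48 genes in the RefSeq table, as 250 bases before to 50 after the most upstream start. Those not listed are Plp2, Klf16, Mir1949, Tgfb1i1, Gas7, Tff1, Fam83h, Cd93, 9930012K11Rik and Ppargc1b. The median GC content was 64.3%, beside 61.0% over the promoters of 9449 measured genes, with quartiles of 54.6% and 68.0% against 54.7% and 67.3%. At least 10 CpG sites were present in 33 of 38 (86.8%), beside 82.2%. By quartile of GC content over all genes, from low to high, 10, 5, 11 and 12 of the 38 fell in each, and the share of all genes at least 1.5-fold lower at 1 h was 0.346%, 0.339%, 0.343% and 0.436%.

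Both strands were searched for 7 motifs, none of which contains another. CCAAT was in 16 of 38 promoters (42.1%) beside 38.6% of 9449, and the E-box CACGTG in 5 (13.2%) beside 10.3%. TATAAA was in 4 (10.5%) beside 7.11%, the TEAD motif GGAATG in 3 (7.89%) beside 11.8%, and TTTGAA, part of the element of cell cycle promoters, in 1 (2.63%) beside 11.9%. The cyclic AMP element TGACGTCA was in 1 (2.63%) beside 3.22%, and GAANNTTC, a unit of the heat shock element, in 1 (2.63%) beside 5.62%. The 12 genes left out by name, clock and mitotic genes among them, are not in the 38 but were not removed from the 9449. The shares are thus not those of all genes that met the threshold. The median genomic span of the 48 genes was 15.4 kb, with quartiles of 9.49 and 32.7 kb, beside 22.5 kb with quartiles of 9.57 and 52.5 kb over measured genes.

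How firmly a gene stays in the set differed between genes. Under 10 other choices of floor, scaling, detection, symbols and probe sets, 13 of the 48 passed each time, namely Ajuba, Dusp5, Dync1li1, Dysf, Etv5, Klf16, P4hb, Pkm, Plp2, Slc29a1, Tff1, Tgfb1i1 and Tmem43. Of these 13, only Etv5 had another measured probe set, so for the rest the choices of probe set could not change the outcome. The floor at the 75th percentile alone kept 20 of the 48, since a gene dim in the control cannot read 1.5-fold lower there. The lower floor and no floor could not remove a gene. Passing each time therefore depends in part on how bright a gene is. Nolc1 and Odf2 fell out with the mean over their measured probe sets, at -0.58 at 3 h and -0.56 at 1 h. With the mean of the other 3 arrays in place of the control array, 7 of the 48 passed, namely 9930012K11Rik, B3galt5, Chrna4, Hic2, Klf16, Odf2 and Plp2. That mean includes the other LIPUS arrays, so a gene low at several times differs less from it.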

How the data were processed

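The authors deposited 1 log2 signal per probe set and array for 45101 probe sets of an Affymetrix mouse array. Array medians were nearly equal. Base 2 was inferred from the range of the values. The method that summarised probes and scaled arrays was not given in the sources used here. A compressed or stretched scale would carry into each difference. The labels' protocols give 500 ng of RNA per labelling, an integrity number above 9.5 and a kit for the 3' end of transcripts.

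The platform annotation gave 34958 probe sets 1 symbol, 932 several and did not list 9211, and symbols were updated by Entrez number for 34754. The 64 control probe sets were left out of gene counts. A difference was computed where at least 1 of the 2 arrays lay above the floor, with dim values raised to it, so where the LIPUS array lay under the floor it is a bound. A probe set was measured by the same condition.

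Genes were named by a rule: the lowest 10 at each time, genes past the threshold at 2 times, list members, genes with agreeing or disagreeing probe sets, bounds and genes beside the threshold. The remaining genes of the set, and list genes outside it, were named after their values were seen. The genes and lists were chosen with earlier results of these data known, and roles were assigned afterwards. Roles were given to the genes of the set only, so counts by role have no share over all measured genes beside them. The calculation was tested on simulated data, in which the lowered genes lay well above the floor and dropped by 2-fold or more. Drops of the size described here were not simulated. Python 3.11.15, numpy 2.4.6, pandas 2.3.3 and, for quantile and loess scaling, R 4.3.3 with limma 3.58.1 were used.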

Additional observations from a re-analysis of the deposited data

Results flagged for a closer look

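Genes at least 1.5-fold lower at 1 time and above the control, by more than the SD between probe sets, at another time were singled out; with 1 array per group the difference between times was not tested. Hic2 was at -0.59 at 0.5 h, 0.19 at 1 h and 0.20 at 3 h. Of its other 2 probe sets, 1 was at -0.41, -0.31 and -0.06 at these times and the other at -0.45, 0.10 and 0.28. The uncharacterised gene 9930012K11Rik was at -0.62 at 0.5 h and 0.35 at 3 h. Chrna4 was at -0.65 at 1 h and 0.16 at 0.5 h.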

How the results depend on the processing

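The number of genes past the threshold, 7, 28 and 19 at 0.5, 1 and 3 h and 48 in all, depends on the floor. With the floor at the 25th percentile of all values there were 18, 53 and 36 genes and 89 in all, with no floor 22, 72 and 49 and 122 in all, and both kept all 48. With the floor at the 75th percentile there were 0, 15 and 9 genes and 20 in all, and fewer genes were compared. With a threshold of 1 on the log2 scale 0 genes were lower at any time. Against the mean of the other 3 arrays there were 4 genes at 1 h and 25 in all, of which 7 were among the 48. At 0.5 h and 3 h there were 7 and 14 genes, of which 2 and 1 were shared. So 1 h had the fewest low genes in place of the most, and the cause was not tested. This reference averages the control with the other LIPUS arrays, so a gene low at several times differs less from it. The other alternatives gave between 40 and 59 genes in all. Median centring gave 47, of which 42 were among the 48, and quantile normalization 59, of which 47 were. Cyclic loess gave 53, of which 43 were among the 48, and the mean over measured probe sets 40, of which 32 were. There were 43 with every measured probe set below 0, 45 with both arrays above the floor and 48 with the platform's symbols, all among the 48. With the second brightest probe set in place of the brightest, an alternative chosen after seeing the data and open to 5360 genes, 54 genes were lower, of which 2 were among the 48. Of the 48, only 18 had another measured probe set and could be shared. The 54 low values of the 48 genes were recomputed under 8 alternatives, 405 values in all, of which 70 moved by more than the SD between probe sets and 0 changed sign. Of these, 50 of 54 moved against the mean of the other 3 arrays, where 7 stayed past the threshold and the smallest was -0.24, and 17 of 54 with the mean over probe sets, where 36 stayed past it and the smallest was -0.09. The other 3 were among 27 values with the floor at the 75th percentile. No paired analysis was possible because each group is 1 array. The number of arrays and, for 9 genes, a control signal near the floor limit the precision.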
